A study of Mus musculus with 17 samples.

Results

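The transcripts of 10 glycolytic enzyme genes were followed across 17 mouse libraries: Hk1, Hk2, Pfkp, Pfkl, Aldoa, Tpi1, Pgk1, Pgam1, Pkm and Ldha. The genes were taken by name and matched to Ensembl gene identifiers with the version dropped, and all 10 were found among the 53313 identifiers that the 17 libraries share. Glycolysis splits glucose into pyruvate in the cytosol and yields ATP without oxygen, and lactate dehydrogenase regenerates the NAD+ that the pathway needs by turning pyruvate into lactate. In the kidney the proximal tubule is known for making glucose by gluconeogenesis and for burning fatty acids, while distal segments and the medulla rely more on glycolysis. Most steps are served by several isozymes encoded by different genes, and proliferating or cultured cells are known for using the isozymes Hk2, Pkm and Ldha.

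The cultures were primary tubular epithelial cells (PTEC), grown from sieved tubular fragments of wild-type C57BL/6Rj kidneys after collagenase digestion. The strain is spelled as on the labels, and the methods of the study write C57BL/6JRj. Non-senescent PTEC (4 libraries) were harvested at day 6 without irradiation, and senescent PTEC (4 libraries) at day 16 after γ-irradiation with 10 Gray, so that radiation and time in culture changed together and cannot be told apart. Whole kidney RNA came from frozen pieces of the right kidney of male mice of the same strain without gross or histological pathology, aged 3, 12 and 24 months, with 3 libraries per age and no treatment. Poly(A) RNA was sequenced and the authors deposited raw counts per gene. No label states that the cultures came from separate mice, so that p-values measure the spread between these samples, which may be technical.

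Between 26963442 and 35409144 reads per library were counted on genes in PTEC, and between 37311247 and 66894790 in kidneys. Values are given as CPM, counts scaled to the size of the library after TMM scaling within PTEC, within kidneys or over all 17 libraries, as named. Of 10 proximal tubule markers, 3 were at 1 CPM or more in all 8 PTEC libraries, among them Lrp2 (65.5 to 539 CPM) and Hnf4a (12.1 to 133 CPM), while Slc22a6, Slc22a8 and Cyp2e1 stayed below 1 CPM in all 8. The 3-month-old kidneys were counted on 54146 gene identifiers and the older kidneys on 55401, so that the age of 3 months and the gene set cannot be told apart. In the 9 kidneys the immediate early genes stood apart in 24-month replicate 1, where Fos reached 97.8 CPM and Egr1 464 CPM on the kidney scale.

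The promoters of 3 genes are printed to set their letters beside their values in the cultures: Ldha, which had the largest decrease of the 10 in senescent PTEC, Pgk1, which also fell, and Hk2, whose groups overlapped there. Each covers 250 bases before and 50 from the RefSeq start on, on the strand of the gene, from the GRCm38.p6 tables. Capitals mark ACGTG and GCGTG, the core letters of the hypoxia response element, and CACGTG, the E-box, searched on both strands with overlaps allowed, so that a match on the other strand reads CACGT or CACGC. The Ldha window lies at chr7:46845554-46845853 on the plus strand, the Pgk1 window at chrX:106186850-106187149 on the plus strand, and the Hk2 window at chr6:82774405-82774704 on the minus strand.
Ldha: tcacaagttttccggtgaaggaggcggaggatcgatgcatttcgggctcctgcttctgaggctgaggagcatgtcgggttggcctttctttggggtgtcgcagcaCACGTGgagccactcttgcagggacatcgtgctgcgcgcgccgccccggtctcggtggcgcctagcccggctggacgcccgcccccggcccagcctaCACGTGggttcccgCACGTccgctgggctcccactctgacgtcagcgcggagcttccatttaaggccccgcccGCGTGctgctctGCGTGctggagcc
Pgk1: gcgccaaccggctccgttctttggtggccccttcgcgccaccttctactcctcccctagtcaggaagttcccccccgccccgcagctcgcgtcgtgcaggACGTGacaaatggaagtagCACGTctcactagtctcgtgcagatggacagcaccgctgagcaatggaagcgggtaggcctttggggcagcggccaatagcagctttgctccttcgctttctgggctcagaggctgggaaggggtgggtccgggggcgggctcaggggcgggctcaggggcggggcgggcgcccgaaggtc
Hk2: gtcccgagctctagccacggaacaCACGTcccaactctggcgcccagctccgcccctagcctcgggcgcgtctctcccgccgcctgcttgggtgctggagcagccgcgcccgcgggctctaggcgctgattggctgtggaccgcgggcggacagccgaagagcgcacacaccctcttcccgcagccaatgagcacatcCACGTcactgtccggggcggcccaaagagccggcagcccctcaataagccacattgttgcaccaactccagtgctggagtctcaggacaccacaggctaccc
The Ldha window held 3 stretches with ACGTG on either strand and 2 with GCGTG. Of the 3, 2 were CACGTG, a palindrome that holds ACGTG on both strands. It is the first of 2 windows that RefSeq gives for Ldha, and the second, at chr7:46846832-46847131, held 2 matches of GCGTG and 0 of the other motifs. The Pgk1 and Hk2 windows held 2 stretches with ACGTG each and none of the other motifs. The 1 window of Tpi1, which was 2.70-fold lower in senescent PTEC, held 0 matches of any of the motifs. Over the 15 windows that RefSeq gives for the 10 genes, 11 held ACGTG or GCGTG and 1 held CACGTG. Of these 11, 2 are windows of Aldoa that overlap and hold the same match of ACGTG, which thus counts for both. Among all 32851 promoter windows of the same length, 19.6% held ACGTG, 32.4% GCGTG, 43.8% either of these and 7.15% CACGTG. A match is a description of the letters and not a binding site.

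Per length of transcript, Aldoa was first among the 10 genes in every group, with a mean of 893 ± 300 RPKM (SD, n = 4) in non-senescent PTEC, 384 ± 22.8 in senescent PTEC and 1022 ± 76.6 (n = 3) in 3-month-old kidneys. RPKM here is the CPM over all 17 libraries divided by the length of the main annotated transcript. Aldoa encodes aldolase A, which splits fructose 1,6-bisphosphate. In PTEC it was followed by Pkm, the pyruvate kinase of the last step, with which its libraries overlapped in both culture groups. In kidneys Pkm came at every age directly behind Aldoa, Ldha, Tpi1 and Pgk1, with 126 ± 22.5 RPKM at 3 months. Hk2 was the last of the 10 in kidneys and in non-senescent PTEC, with 0.236 ± 0.131 RPKM in 3-month-old kidneys and 22.6 ± 4.72 in non-senescent PTEC. With the union of all exons as length, Aldoa stayed first and neighbouring genes traded places.

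**Figure D1:**
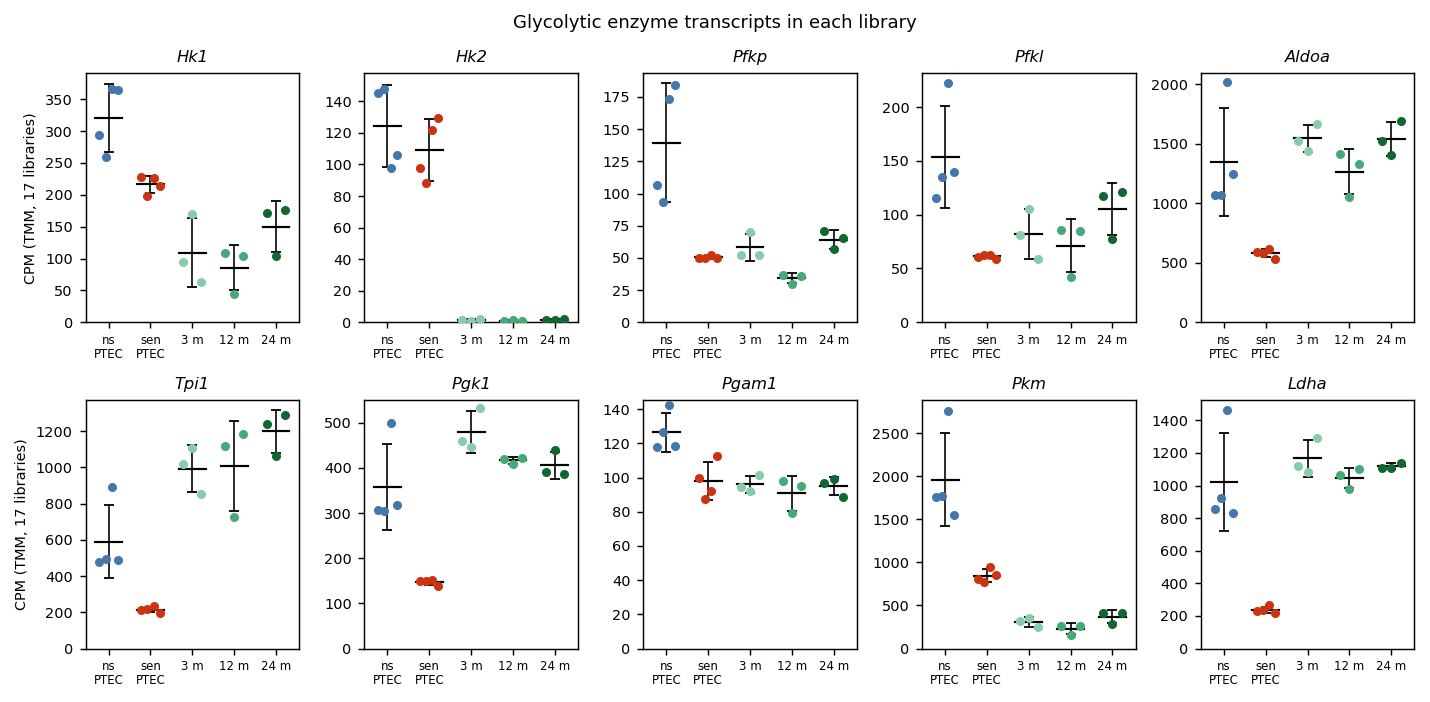
Normalised counts (CPM, TMM over all 17 libraries, linear axes from 0) of the 10 glycolytic enzyme genes in non-senescent (ns) and senescent (sen) PTEC and in kidneys of 3, 12 and 24 months. Points are libraries, bars the group mean and whiskers ± SD (n = 4 in PTEC, n = 3 in kidneys). Senescent PTEC lie below non-senescent PTEC for 9 of the 10 genes, and Hk2 is at most 2.15 CPM in the kidneys.

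Senescent versus non-senescent PTEC were compared to ask which transcripts differ between the irradiated and the untreated cultures. Of the 10 genes, 8 were called lower in senescent PTEC and 0 higher. A gene counted as called where its adjusted p was below 0.05 and its log2 fold change beyond 0.5 in either direction. Of all 15434 genes tested 39.8% were called, 19.7% lower and 20.1% higher. The median log2 fold change of the 10 genes was -1.22, against -0.00 over all genes tested. The libraries of the groups did not overlap for 9 of the 10, each lower in senescent PTEC, as for 19.9% of all genes, while 22.1% of all genes had every senescent library above the others. The decreases ran from 1.46-fold for Hk1 to 4.24-fold for Ldha, and Hk2 and Pgam1 were not called.

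Positions of the genes are those of GRCm38 in GENCODE release M 21. Hexokinases trap glucose in the cell as glucose 6-phosphate. Hk1 (ENSMUSG00000037012, chr10:62268855-62379908, minus strand), the broadly expressed hexokinase, was at 365, 328, 462 and 461 CPM on the PTEC scale in non-senescent replicates 1 to 4 and at 289, 254, 285 and 277 CPM in senescent replicates 1 to 4. Its highest senescent library lay below its lowest non-senescent library, with a log2 fold change of -0.55 ± 0.15 (SE, adjusted p = 0.0145, edgeR). The size of this decrease was close to the threshold of 0.5, and it was -0.47 without non-senescent replicate 3 and -0.48 without non-senescent replicate 4. Hk2 (ENSMUSG00000000628, chr6:82725025-82774454, minus strand), the inducible and insulin-responsive hexokinase, was at 181, 187, 123 and 134 CPM in non-senescent PTEC and at 125, 113, 154 and 167 CPM in senescent PTEC. These groups overlapped, with the higher values in replicates 1 and 2 of the first and in replicates 3 and 4 of the second, and the log2 fold change was -0.16 ± 0.18 (adjusted p = 0.509).

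Phosphofructokinase commits the sugar to glycolysis. The platelet-type subunit Pfkp (ENSMUSG00000021196, chr13:6579768-6648777, minus strand) was at 133, 118, 219 and 233 CPM in non-senescent PTEC and at 63.1, 64.6, 66.2 and 64.6 CPM in senescent PTEC. All senescent libraries lay close together and below every non-senescent one, a 2.71-fold decrease (log2 fold change -1.44 ± 0.22, adjusted p = 0.000760). Pfkp shares exon sequence with Pitrm1 on the opposite strand, which itself was called lower with a log2 fold change of -0.63 ± 0.11, and since the strand setting of the counting is not given the share of reads between them is uncertain. The liver-type subunit Pfkl (ENSMUSG00000020277, chr10:77986947-78010083, minus strand) was at 144, 171, 280 and 177 CPM in non-senescent PTEC and at 77.4, 80.8, 79.3 and 76.1 CPM in senescent PTEC. It was 2.46-fold lower in senescent PTEC without overlap of the groups (log2 fold change -1.30 ± 0.20, adjusted p = 0.000683).

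The middle steps were also lower. Aldoa (ENSMUSG00000030695, chr7:126795234-126800751, minus strand) was at 1328, 1348, 2541 and 1573 CPM in non-senescent PTEC and at 754.5, 745, 779.5 and 691 CPM in senescent PTEC, a 2.29-fold decrease (log2 fold change -1.19 ± 0.22, adjusted p = 0.00205). Tpi1 (ENSMUSG00000023456, chr6:124810586-124814296, minus strand) encodes triosephosphate isomerase, which interconverts the triose phosphates that aldolase makes. Its levels were 597, 625, 1122 and 619 CPM in non-senescent PTEC and 270, 280, 295 and 253 CPM in senescent PTEC, a 2.70-fold decrease (log2 fold change -1.43 ± 0.22, adjusted p = 0.000711). Spsb2, which overlaps Tpi1 on the opposite strand, had a log2 fold change of 0.10 ± 0.24 and was not called.

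Pgk1 (ENSMUSG00000062070, chrX:106187100-106203699, plus strand), the first ATP-yielding kinase of the pathway, was at 382, 384, 630 and 401 CPM in non-senescent PTEC and at 191, 192, 191 and 179 CPM in senescent PTEC. The groups were far apart relative to the spread of the senescent libraries, and the log2 fold change was -1.25 ± 0.18 (adjusted p = 0.000535). Pgam1 (ENSMUSG00000011752, chr19:41911923-41918660, plus strand), the phosphoglycerate mutase of most tissues, was at 147, 160, 179 and 150 CPM in non-senescent PTEC and at 127, 112, 116 and 146 CPM in senescent PTEC. The libraries just failed to overlap, and with a log2 fold change of -0.34 ± 0.13 (adjusted p = 0.0550) Pgam1 was not called. Annotated copies of Pgam1 held at most 1.07% of its counts.

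Pkm (ENSMUSG00000032294, chr9:59656368-59679375, plus strand) was at 2190, 2236, 3478 and 1967 CPM in non-senescent PTEC and at 1025.5, 990.1, 1202 and 1107 CPM in senescent PTEC. It was 2.28-fold lower in senescent PTEC (log2 fold change -1.19 ± 0.20, adjusted p = 0.00130) without overlap of the groups. Gene counts do not separate its splice forms PKM1 and PKM2. Ldha (ENSMUSG00000063229, chr7:46841475-46855627, plus strand), the subunit that favours lactate formation, was at 1068, 1169, 1846 and 1053 CPM in non-senescent PTEC and at 292, 303, 334 and 280 CPM in senescent PTEC. This was the largest change among the 10 genes, 4.24-fold (log2 fold change -2.09 ± 0.21, adjusted p = 6.39e-05), and with each library left out in turn or with the other scalings, filter, tool and block its log2 fold change stayed between -2.17 and -1.85.

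Non-senescent replicate 3 was the highest of its group for 8 of the 10 genes. Without it 7 genes were called lower, and Hk1 was under the fold threshold. Senescent and non-senescent PTEC also differed in other lists of genes, whose part in these differences was not tested. All 8 proliferation markers were called lower at a median of -5.22 on the log2 scale, and their summed level was 810 to 1341 CPM in non-senescent and 23.8 to 42.2 CPM in senescent PTEC on the scale of all 17 libraries. Of 6 fibroblast and pericyte markers 5 were tested and 3 called higher (Dcn, Col1a2 and Pdgfrb), with sums of 10.9 to 71.1 and 77.3 to 276 CPM. Of 10 proximal tubule markers 6 were tested and 4 called lower, with sums of 163 to 647 and 112 to 267 CPM. All 5 loop of Henle markers were called lower, with sums of 60.1 to 169 and 13.0 to 48.6 CPM. Of the remaining lists, 2 of 4 tested podocyte markers were called higher, 3 of 9 immediate early and heat shock genes higher, and 1 marker each of leukocytes, endothelium and the distal tubule lower. In bulk samples fewer cells of a type and less RNA per cell cannot be told apart.

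**Figure D2:**
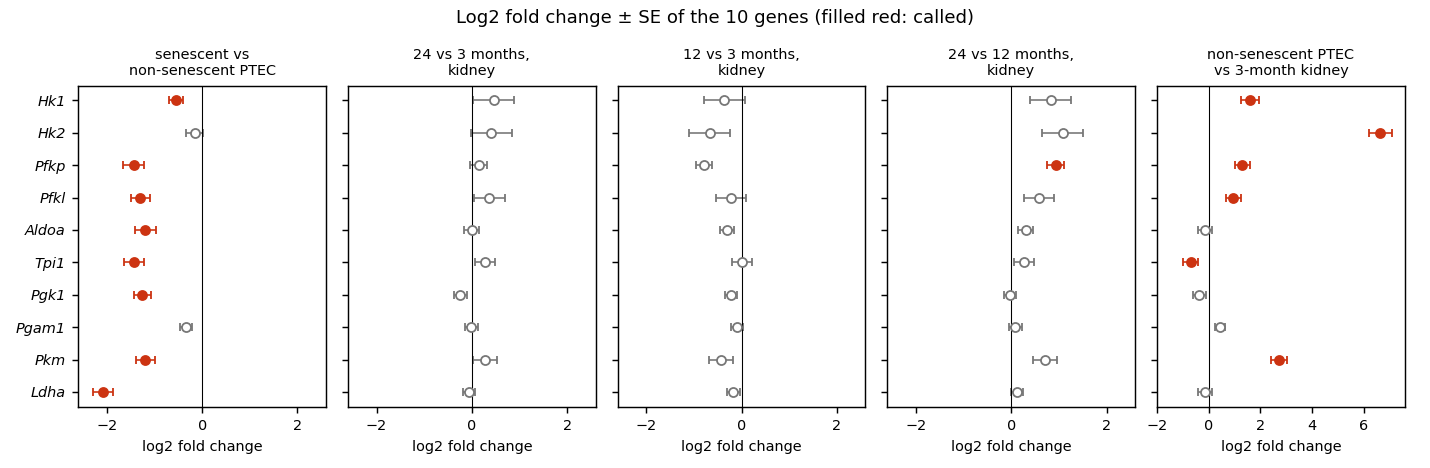
Log2 fold change ± SE (edgeR) of the 10 genes in 5 comparisons, with genes on the vertical axis and called genes as filled red points. The last panel has a wider horizontal axis than the others. In senescent PTEC 8 genes lie to the left at -2.09 to -0.55, the ages of the kidney have 1 call, and Hk2 reaches 6.64 in non-senescent PTEC against 3-month-old kidney.

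The isozymes of a step were compared within each library, and 5 steps are given, as the percentage of the summed RPKM of the step. These shares were chosen after the values had been seen and were tested with exact two-sided permutation tests over 4 against 4 libraries, whose smallest possible p is 0.0286. These tests ignore that same-numbered cultures were read as pairs. With the 4 pairs kept, an exact sign-flip test cannot go below p = 0.125, which the shares of Ldha, Pfkp and Pgam1 each reached with all 4 pairs in 1 direction. Ldha held 74.7, 75.5, 71.3 and 63.6% of lactate dehydrogenase transcripts in non-senescent PTEC and 40.9, 42.1, 33.4 and 36.4% in senescent PTEC. The difference was -33.1 percentage points (exact permutation p = 0.0286, Benjamini-Hochberg 0.0429 over the 6 shares tested, of which 5 are given). Ldhb, the subunit that favours pyruvate formation, made up the rest and had a log2 fold change of -0.06 ± 0.26 (adjusted p = 0.861).

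In the phosphofructokinase step Pfkp held 40.9, 34.2, 38.0 and 49.0% in non-senescent PTEC and 29.3, 29.6, 30.1 and 29.8% in senescent PTEC, a difference of -10.8 points (exact permutation p = 0.0286, Benjamini-Hochberg 0.0429). The muscle-type Pfkm took 9.47 ± 1.15% (SD, n = 4) in non-senescent PTEC and 30.3 ± 0.870% in senescent PTEC, and its transcript was called higher there (log2 fold change 0.73 ± 0.15, adjusted p = 0.00357). The levels of these shares depend on the length used. With the union of all exons as length, Pfkm took 16.8 ± 1.93% and 45.3 ± 1.08% and was the largest of the 3 in senescent PTEC, where Pfkl is the largest by the main transcript, and Pfkp took 25.9 ± 4.89% and 15.9 ± 0.221%.

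Pgam1 held 93.9 ± 3.68% of phosphoglycerate mutase in non-senescent and 99.8 ± 0.12% in senescent PTEC (exact permutation p = 0.0286, Benjamini-Hochberg 0.0429), with the muscle form Pgam2 at 2.07 to 7.94 CPM in non-senescent PTEC and at most 0.16 CPM in senescent PTEC. Hk2 held 20.1 ± 6.06% of hexokinase transcripts in non-senescent and 25.2 ± 2.82% in senescent PTEC (exact permutation p = 0.257), or 32.6 ± 8.32% and 40.2 ± 3.47% with exon union lengths. Pkm held 98.3 ± 1.59% and 97.2 ± 0.694% of pyruvate kinase against Pklr (exact permutation p = 0.286). The last 2 shares overlapped between the groups.

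**Figure D3:**
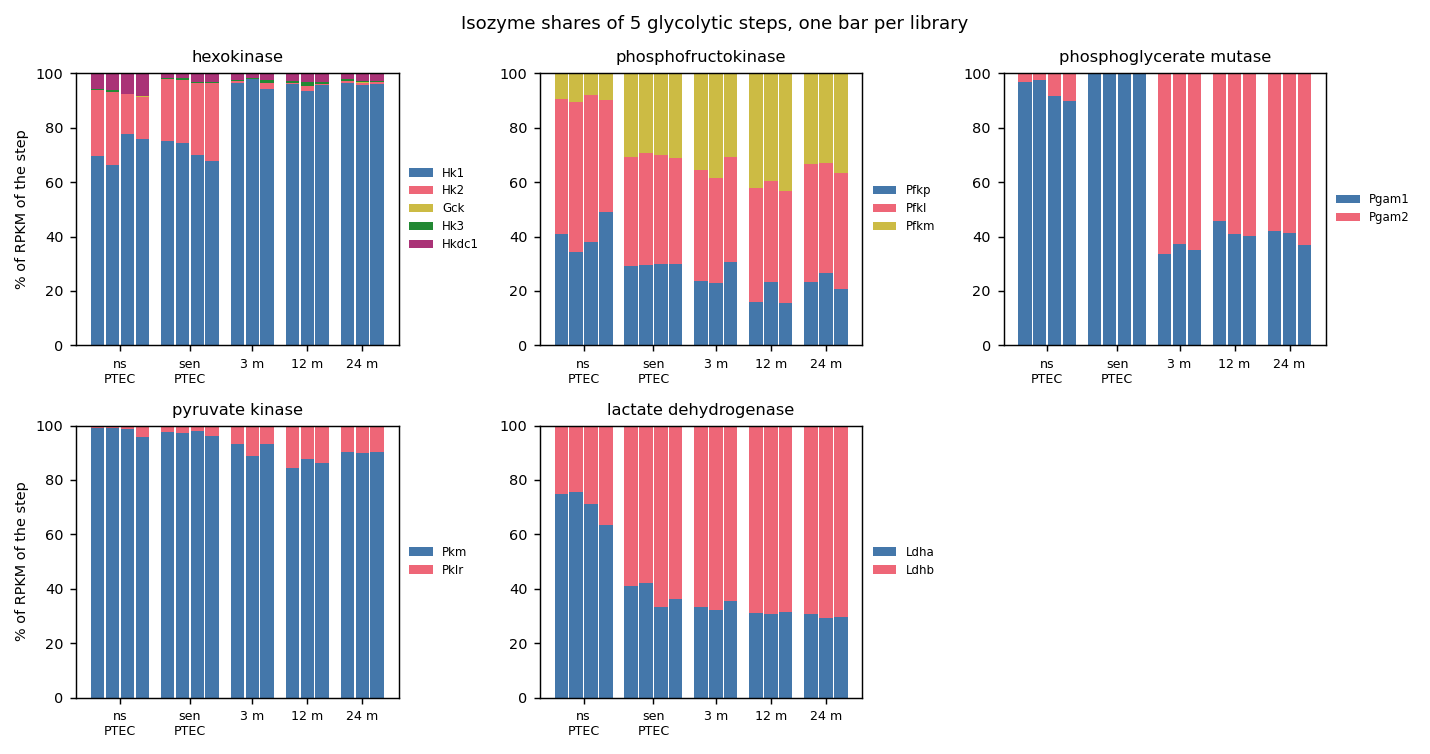
Isozyme shares of 5 glycolytic steps as a percentage of the summed RPKM of the step (vertical axis), with 1 stacked bar per library in non-senescent (ns) and senescent (sen) PTEC and kidneys of 3, 12 and 24 months. Ldha takes 71.3% of its step on average in non-senescent PTEC, 38.2% in senescent PTEC and 29.9 to 33.7% in the 3 kidney groups.

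The other genes of the pathway in PTEC are given by 6 lists. Of their 51 tested genes 25 were called, beside 39.8% of all genes, 19.7% lower and 20.1% higher. Of 14 other isozymes, 7 were called lower and 1 higher, with a median log2 fold change of -0.86. Among the lower ones were Pgam2 (-5.56) and Hkdc1 (-1.96), and Eno1 (-1.45) and Gapdh (-1.05), the main enolase and the dehydrogenase of the middle of the pathway, were called lower too. Of 7 glucose and lactate carriers 3 were called lower: Slc2a2 (-3.18), Slc16a3 (-2.80) and Slc16a1 (-2.63), where Slc16a3 and Slc16a1 encode monocarboxylate carriers that move lactate. The main glucose carrier Slc2a1 had a log2 fold change of -0.54 ± 0.25 (adjusted p = 0.113).

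Among 5 enzymes of fructose 2,6-bisphosphate, the activator of phosphofructokinase, 1 was called lower (Pfkfb1, -1.94). Of 10 genes for pyruvate entry into mitochondria 5 were called lower, led by the pyruvate dehydrogenase kinase Pdk1 (-1.25), the dehydrogenase subunit Pdha1 (-0.66) and the carrier subunit Mpc1 (-0.63), and 1 higher, Pdk4 (1.07). The list joins carrier and dehydrogenase genes with kinases of the dehydrogenase, so a count of its genes gives no direction of pyruvate entry. Of 6 gluconeogenesis genes 4 were tested and 2 called lower, Pck1 (-2.88) and Slc37a4 (-1.85). Of 12 hypoxia response genes outside glycolysis 11 were tested, with 4 called lower (Ankrd37 at -2.23, Ndrg1 at -1.85, Egln3 at -1.57 and Bnip3 at -0.86) and 1 higher (P4ha1, 0.54), and a median of -0.10. Hif1a, the oxygen-regulated subunit of HIF-1, had a log2 fold change of -0.10 ± 0.24 (adjusted p = 0.765) at the transcript level.

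**Figure D4:**
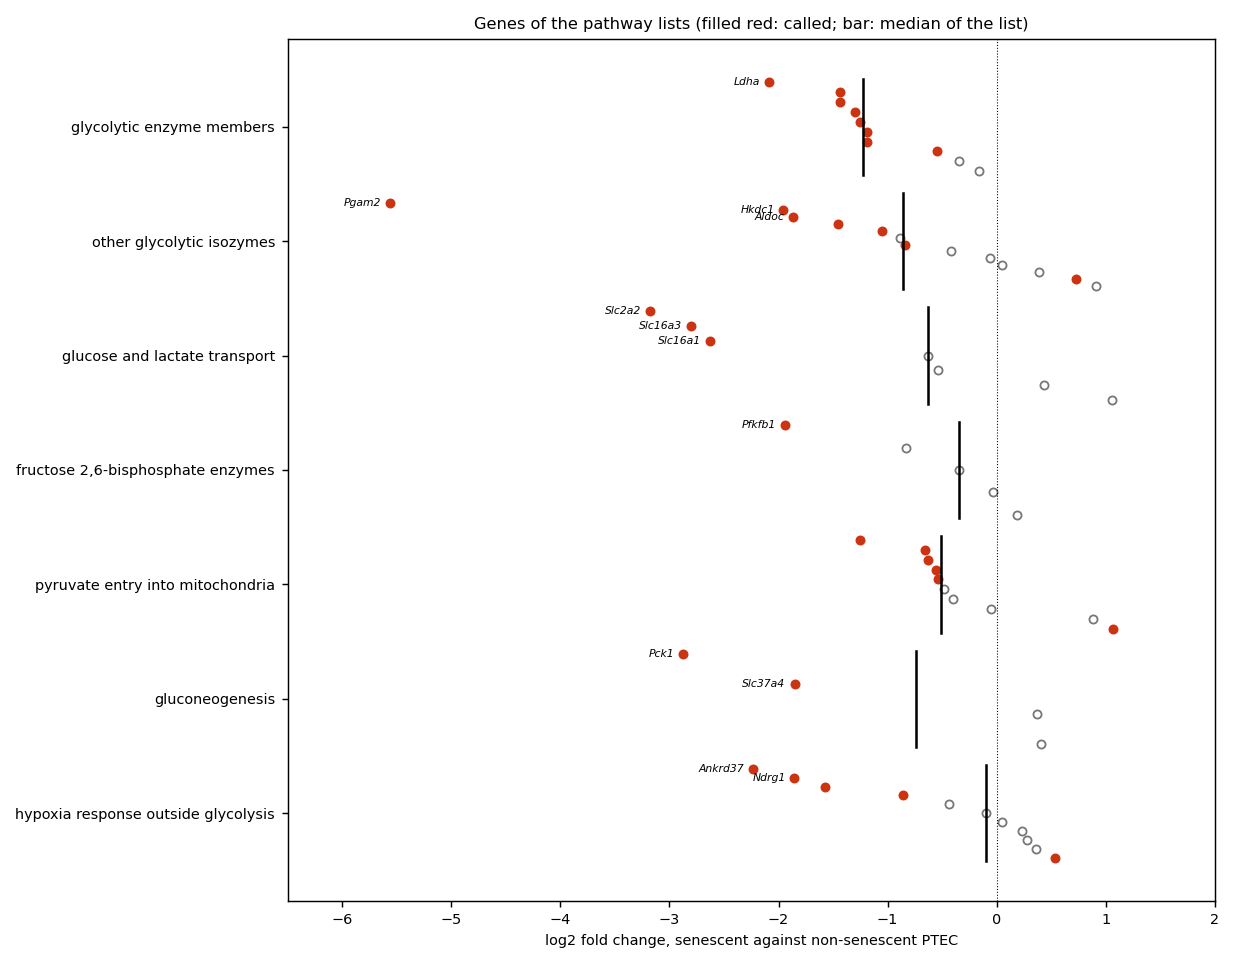
Log2 fold change of senescent against non-senescent PTEC (horizontal axis) for the genes of 7 pathway lists, each point a gene, filled red where called, with a black bar at the list's median. Names are given for the called genes farthest to the left, and 1 gene of the other isozymes counts in its list's median but is not drawn. The medians lie at -1.22 for the 10 glycolytic enzyme genes and between -0.86 and -0.10 for the other lists.

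Kidneys of 3, 12 and 24 months were compared to ask whether the transcripts differ with age. Between 24 and 3 months 0 of the 10 genes were called, and 0 had an unadjusted p under 0.05, beside 18.2% of all genes, while 2.34% of the 17067 genes tested were called, 1.89% higher and 0.451% lower. DESeq2 with the study's settings also called 0 of the 10. The median log2 fold change of the 10 was 0.21, against 0.00 over all genes, and the single values lay between -0.24 (Pgk1) and 0.46 (Hk1), the latter running from 0.18 to 0.93 with 1 kidney left out. Pgk1 alone had groups that did not overlap, with 374, 363 and 429 CPM on the kidney scale at 3 months and 318, 355 and 315 CPM at 24 months (log2 fold change -0.24 ± 0.13, adjusted p = 0.341), a pattern seen for 10.1% of all genes, against 11.9% in the other direction.

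Pfkp was the only one of the 10 genes that edgeR called between 2 ages without a block. Its levels were 42.4, 57.4 and 42.4 CPM at 3 months, 29.5, 24.0 and 28.8 CPM at 12 months and 58.0, 45.7 and 53.1 CPM at 24 months. The 12-month-old kidneys lay below all others. Between 24 and 12 months Pfkp was called higher, 1.90-fold (log2 fold change 0.93 ± 0.17, adjusted p = 0.0443), while 1.33% of all genes were called, 0.896% higher and 0.434% lower. This call did not persist with any of the 6 kidneys left out (adjusted p from 0.0900 to 0.166) or with the replicate numbers as a block over all 9 kidneys (0.162), although the log2 fold change stayed between 0.84 and 1.02. That block gives a number the same effect at every age, while same-numbered kidneys of 3 months and older ages had r from -0.784 to -0.0379. No gene at all was called under it between 24 and 12 months, so the lost call does not single out Pfkp. Between these 2 ages the departures of same-numbered kidneys from their means correlated with r from 0.249 to 0.644, but so did those of 24-month replicate 1 with 12-month replicate 3 (0.412) and of 24-month replicate 3 with 12-month replicate 1 (0.302), and 2 of 3 kidneys of each age correlated best with their own number. With the block over these 2 ages alone, a fit chosen after seeing the data, 4 of the 10 genes were called higher while 7.77% of all genes were called higher and 5.41% lower. They were Pfkp (0.93 ± 0.10, adjusted p = 0.000950), Hk1 (0.89 ± 0.13, 0.00316), Pkm (0.72 ± 0.11, 0.00388) and Pfkl (0.62 ± 0.12, 0.00904). The labels do not say what a number shares between mice of different age. Between 12 and 3 months the log2 fold change of Pfkp was -0.79 ± 0.17 (adjusted p = 0.0505). It was called lower with RLE scaling (0.0486), upper quartile scaling (0.0343) and DESeq2 (0.00262). These were the only 3 of 12 alternatives with an adjusted p under 0.05. With each kidney left out in turn Pfkp was not called (adjusted p from 0.0706 to 0.150). Pitrm1 on the opposite strand had log2 fold changes of 0.22 ± 0.15 between 24 and 12 months and 0.04 ± 0.15 between 12 and 3 months.

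Between 12 and 3 months 0 of the 10 genes were called by edgeR, 1 had an unadjusted p under 0.05 (Pfkp), beside 16.5% of all genes, and 2.58% of all genes were called, 1.22% higher and 1.36% lower. Groups did not overlap for 3 genes, Pfkp, Aldoa and Pgk1, each lower at 12 months, as for 9.4% of all genes, and 10.9% of all genes were higher without overlap. The median of the 10 was -0.26. Between 24 and 12 months groups did not overlap for 5 genes, Hk2, Pfkp, Aldoa, Pkm and Ldha, each higher at 24 months, as for 13.5% of all genes, against 12.2% in the other direction, and the median was 0.44. An unadjusted p under 0.05 was reached there by 3 of the 10, Hk2, Pfkp and Pkm, beside 15.2% of all genes. Hk2 was scarce in every kidney, from 0.44 to 1.75 CPM or 23 to 114 reads, and its log2 fold change of 1.08 ± 0.43 between 24 and 12 months had an adjusted p of 0.280. Pkm, at 211, 128 and 215 CPM at 12 months and 336, 230 and 340 CPM at 24 months, had a log2 fold change of 0.71 ± 0.25 and an adjusted p of 0.227.

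Hk1, Pfkp, Pfkl, Tpi1 and Pkm had the same lowest kidney at each age, 3-month replicate 3, 12-month replicate 2 and 24-month replicate 2. For Pfkp at 3 months this was close to a tie, with 42.36 CPM in replicate 3 and 42.38 CPM in replicate 1. Hk1 was at 77.2, 138 and 51.5 CPM at 3 months, 87.5, 35.8 and 83.5 CPM at 12 months and 139, 83.6 and 143 CPM at 24 months. Replicate 2 at 12 months was the lowest of its age for 9 of the 10 genes, and replicate 2 at 24 months for 8 of the 10. Replicate 3 at 3 months was the lowest of its age for 5 genes, for Pfkp by that small margin, and the highest for the other 5, Hk2, Aldoa, Pgk1, Pgam1 and Ldha. Hk2 was at 0.919, 0.553 and 1.69 CPM at 3 months, and at 12 months it was highest in replicate 2 with 0.905 CPM. Gapdh, the glyceraldehyde 3-phosphate dehydrogenase of the pathway, was lowest in the same kidneys, with 826, 706 and 1273 CPM. The proximal tubule markers Lrp2 and Slc34a1 were also lowest there, Slc34a1 with 2503, 3169 and 5238 CPM. The summed podocyte markers were also lowest of their age in these kidneys, with 201, 150 and 266 CPM on the scale of all 17 libraries against 237 to 447 CPM in the other 6. The summed erythrocyte markers were highest there, with 1110, 721 and 1065 CPM against 361 to 632 CPM. Some other sums did not follow at 3 months. Loop of Henle and endothelium markers were lowest in 3-month replicate 1 (3816 and 159 CPM, against 3993 and 182 CPM in replicate 3). Distal tubule and collecting duct markers were lowest in 3-month replicate 2 (1501 CPM, against 1633 CPM in replicate 3). These lists were lowest in replicate 2 at 12 and 24 months. The leukocyte sum was highest in 3-month replicate 3 (162 CPM) and in the middle in replicate 2 of both older ages. Ldhb was the highest of its age in 3-month replicate 3 (1391 CPM), the lowest in 12-month replicate 2 (1310 CPM) and the middle one in 24-month replicate 2 (1596 CPM). Whether the makeup or quality of the tissue pieces had a part in these differences was not tested.

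**Figure D5:**
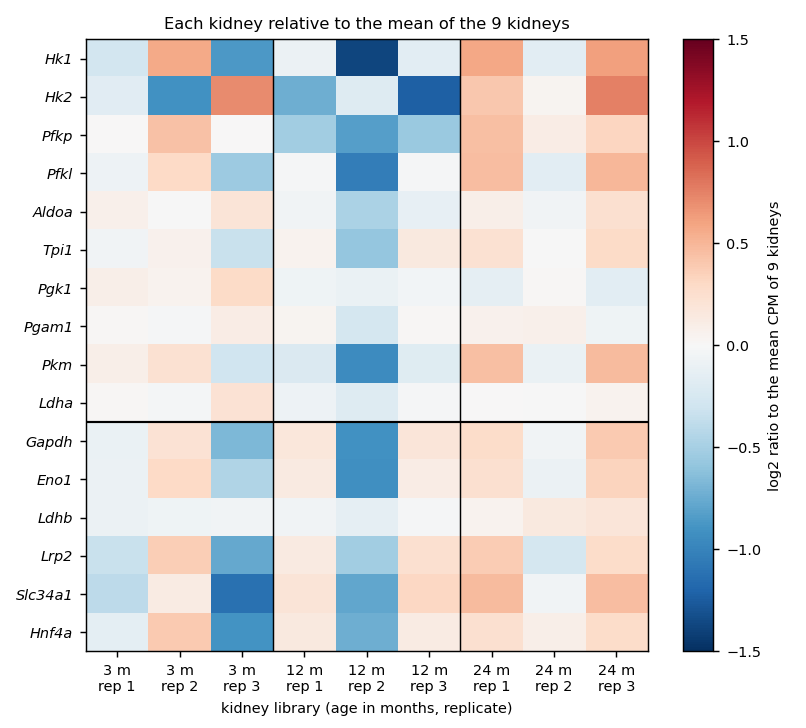
Log2 ratio of each kidney library (columns, by age in months and replicate) to the mean CPM of the 9 kidneys for the 10 glycolytic enzyme genes (above the line) and 6 genes for comparison (below). Blue is below and red above the mean, and the colour scale ends at ± 1.5. Hk1 is lowest in 12-month replicate 2 at -1.38, where Gapdh is at -0.90 and Slc34a1 at -0.78.

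Of the 53 tested genes of the 6 pathway lists, edgeR called 0 between 24 and 3 months, 3 between 12 and 3 months and 1 between 24 and 12 months, beside 2.34%, 2.58% and 1.33% of all genes. An unadjusted p under 0.05 was reached by 11, 15 and 9 of the 53, and by 18.2%, 16.5% and 15.2% of all genes. Between 12 and 3 months Slc16a1 (-1.15) and Aldoc (-0.79) were called lower and Pfkfb4 (0.71) higher. These 3 calls were lost with the replicate block over all 9 kidneys (adjusted p = 0.0728, 0.134 and 0.144). With a kidney left out Slc16a1 and Aldoc kept the call in 1 and 2 of the 6 fits. Pfkfb4 lost it in each (adjusted p from 0.0676 to 0.182). Between 24 and 12 months Slc16a1 (0.98) was called higher. The last call was lost with the replicate block over all 9 kidneys (adjusted p = 0.152) and with any of the 6 kidneys left out (0.0529 to 0.144), and kept with the block over the 2 ages alone (0.00346). Slc16a1, a lactate carrier, was at 14.3, 13.3 and 15.2 CPM at 12 months and between 22.8 and 35.1 CPM in the other 6 kidneys, without overlap. Some marker lists held called genes too. Of 8 proliferation markers 3 were called higher between 24 and 12 months, with sums of 6.78 to 9.14 and 22.2 to 54.8 CPM on the scale of all 17 libraries, and of 9 immediate early and heat shock genes 1 was called higher, with sums of 58.0 to 77.1 and 147 to 1203 CPM. With the replicate block over all 9 kidneys no gene was called between 24 and 12 months (0 higher and 0 lower), and with the block over the 2 ages alone the 3 proliferation markers were called (adjusted p from 0.000520 to 0.000749) and the immediate early gene Fos was not (0.164). Between 24 and 3 months 3 proliferation markers, 1 proximal tubule marker and 1 immediate early gene were called higher and 1 loop of Henle marker lower. Between 12 and 3 months 1 leukocyte marker was called higher, and 2 heat shock genes and 1 marker each of the loop of Henle and the distal tubule lower. Of 8 leukocyte markers 2 were called higher between 24 and 3 months. With each kidney left out in turn, 1 of the 8 list genes called between 24 and 3 months, 0 of the 8 called between 12 and 3 months and 0 of the 6 called between 24 and 12 months, Pfkp included, kept the call every time. Their part in the values of the 10 genes was not tested.

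Non-senescent PTEC were set against 3-month-old kidney to place the cultures beside the tissue. Cell makeup, culture and gene set change together here and cannot be told apart, and 65.7% of the 16118 genes tested were called, 33.0% higher and 32.7% lower. Of the 10 genes 5 were called higher in PTEC and 1 lower, with a median log2 fold change of 0.70 against 0.05 over all genes. Groups did not overlap for 6 genes, each higher in PTEC, as for 30.8% of all genes, and 33.6% of all genes were lower without overlap.

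Hk2 differed most, with 145, 148, 98.0 and 106 CPM over all 17 libraries in non-senescent PTEC and 1.13, 0.679 and 2.09 CPM in 3-month-old kidney. This was a 100.1-fold difference (log2 fold change 6.64 ± 0.44, adjusted p = 3.78e-07). Pkm was at 1760, 1771, 2761 and 1555 CPM in PTEC and at 319, 353 and 246 CPM in kidney, 6.64-fold higher (log2 fold change 2.73 ± 0.31, adjusted p = 2.05e-05). Both groups of libraries lay far apart for Hk2 and Pkm. Hk1 (1.60 ± 0.34, adjusted p = 0.00146), Pfkp (1.30 ± 0.28, adjusted p = 0.00190) and Pfkl (0.95 ± 0.29, adjusted p = 0.0127) were called higher as well. Pitrm1, which overlaps Pfkp on the opposite strand, was called higher too (1.08 ± 0.21, adjusted p = 0.00101). Pfkl lost its call when 3-month replicate 1 was left out, at an adjusted p of 0.0506, and also when 3-month replicate 3 was, at 0.0540.

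Tpi1 was called lower in PTEC, with 480, 495, 891 and 490 CPM against 1021, 1104 and 852 CPM in kidney (log2 fold change -0.70 ± 0.28, adjusted p = 0.0478). The groups overlapped through non-senescent replicate 3, and the call was lost when any of non-senescent replicates 1, 2 and 4 or 3-month replicates 1 and 2 was left out (adjusted p from 0.103 to 0.137). Spsb2, which overlaps Tpi1 on the opposite strand, was called lower as well (-1.70 ± 0.27, adjusted p = 0.000222). The identifier version of Tpi1 differed between PTEC and 3-month-old kidney libraries, and what this did to its counts was not tested. Aldoa (-0.14 ± 0.29, adjusted p = 0.674), Ldha (-0.14 ± 0.27, adjusted p = 0.669), Pgk1 (-0.37 ± 0.25, adjusted p = 0.213) and Pgam1 (0.45 ± 0.20, adjusted p = 0.0613) were not called. Without non-senescent replicate 3, Pgk1 was called lower (-0.62, adjusted p = 0.0187).

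In the 6 pathway lists 43 of 54 tested genes were called between culture and tissue, beside 65.7% of all genes. The isozymes that share a step with the 10 genes differed between culture and tissue. Ldhb (-2.42) and Pgam2 (-4.36) were called lower in PTEC, and Hkdc1 (3.83) and Eno2 (4.01) higher, with 5 called in each direction among the 14. In 3-month-old kidney Ldha made up 33.7 ± 1.81% of lactate dehydrogenase transcripts (SD, n = 3) and Hk1 96.0 ± 1.83% of hexokinase transcripts. All 6 gluconeogenesis genes were called lower in PTEC. Pck1, the committing enzyme of that pathway, was at 0.156 to 3.88 CPM in PTEC and at 1098 to 2291 CPM in kidney. Of the 7 carriers, 4 were called higher, among them Slc16a3 (4.63) and Slc2a1 (2.24), and 3 lower. Of 5 fructose 2,6-bisphosphate enzymes 3 were called higher, of 10 pyruvate entry genes 8 were called lower, and of 12 hypoxia response genes 4 were called higher and 5 lower. All 8 proliferation markers and 7 of 9 immediate early and heat shock genes were called higher in PTEC, 2 of those 9 lower, and all 10 proximal tubule markers, all 7 distal tubule and collecting duct markers and all 5 erythrocyte markers lower. Of the other marker lists, 3 of 5 loop of Henle, 3 of 5 endothelium, 5 of 6 fibroblast and pericyte and 4 of 6 tested leukocyte markers were called lower, and of 5 podocyte markers 3 were called lower and 1 higher. Their part in the values of the 10 genes was not tested.

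Across the 5 groups the genes fell into different orders, read on the scale of all 17 libraries. Hk1, Pkm and Hk2 had both culture groups above every kidney group, with Hk2 overlapping between non-senescent and senescent PTEC. Aldoa, Tpi1, Pgk1 and Ldha had their lowest group in senescent PTEC, below all libraries of the next group. Their senescent means were 581 ± 34.5, 215 ± 15.4, 147 ± 5.79 and 237 ± 20.1 CPM, and the means of the next group 1264 ± 188, 589 ± 202, 357 ± 95.6 and 1020 ± 299 CPM (SD). Pfkp was lowest in 12-month-old kidney at 34.2 ± 3.70 CPM, with senescent PTEC next at 50.6 ± 1.22 CPM and no overlap between them. Pfkl was lowest in senescent PTEC at 61.3 ± 1.87 CPM, overlapping with the 12-month-old kidneys. Pgam1 differed least, from 90.7 ± 10.1 CPM at 12 months to 126 ± 11.5 CPM in non-senescent PTEC.

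The 10 genes did not share 1 profile. The root mean square difference between a gene's centred log2 CPM and the mean profile of the 10 over 17 libraries was 0.26 for Pfkp and 0.32 for Pfkl, and 3.00 for Hk2 and 1.14 for Tpi1. The mean includes each gene itself. It also includes Hk2, which had the largest difference of the 10 between PTEC and 3-month-old kidney and weighs in the mean accordingly. Among 13929 other genes that averaged 1 CPM or more, the nearest to the mean profile were Cdc42ep2 (0.18), Tubg1 (0.18), Fzr1 (0.20), Polr1b (0.20) and Trim27 (0.21). Each of these had its highest mean in non-senescent PTEC, as Tubg1 with 62.2 CPM there, 32.5 CPM in senescent PTEC and 25.9 to 28.8 CPM in kidneys.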

How the data were processed

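RNA from 8 PTEC cultures and 9 kidneys had been sequenced by the authors from stranded poly(A) libraries. The authors deposited raw counts per gene without normalization, made with nf-core/rnaseq, and per the labels the genome build was GRCm38. Which aligner and counter were run, and with which strand option, is not given in the sources used here. Genes whose exons overlap on opposite strands may thus share reads (Pfkp with Pitrm1, Tpi1 with Spsb2, Hk1 with Hk1os, Aldoa with Fam57b). Hk1os and Fam57b held 22 and 20 counts in the first PTEC library. Pkm overlaps Gm49759 on the same strand, which held 513 counts there. The 3 gene sets of the files (53715 identifiers in PTEC, 54146 in 3-month-old and 55401 in older kidneys) were joined on identifiers without version. Symbols, positions and transcript lengths came from GENCODE release M 21. A second identifier with the symbol Aldoa, with 3 to 29 counts, was not used.

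PTEC, kidneys and the comparison of both were fitted apart in R 4.3.3 with edgeR 4.0.16 (TMM, filterByExpr, quasi-likelihood test with robust estimation, Benjamini-Hochberg adjustment over all genes). All adjusted p-values are edgeR's unless DESeq2 1.42.0 is named. SE is the log2 fold change divided by the root of the test's F. The 3 ages share 1 estimate of the spread. Python 3.11.15 with scipy 1.17.1 was used for permutation tests. The test was checked on simulated counts. The 10 genes, the gene lists and the alternatives (other scalings, filter, tool, thresholds, a block, each library left out) were chosen with earlier results of these data known. All 10 genes are named, and of each other list the called genes with the largest log2 fold changes, at most 3 a direction, apart from Eno1, Gapdh, Bnip3, Ldhb, Slc2a1, Hif1a and marker genes, which were added after their values were seen. In the lists 1 gene, with the results that need it, is counted but not reported here.

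Replicate numbers of PTEC are shared by both groups. The departures of cultures 1 to 4 from their group means had r from 0.215 to 0.662 within the 4 same-numbered pairs, all over 0.1, and the numbers were read as pairs. Between 24 and 12 months they correlated with r from 0.249 to 0.644 in mice of different age, and blocked values are given beside the calls, over all 9 kidneys and over these 2 ages alone, the latter chosen after seeing the data. Between 24 and 3 and between 12 and 3 months r was negative for every number.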

Additional observations from a re-analysis of the deposited data

Results flagged for a closer look

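In groups of 4 libraries the highest or lowest value was set apart where its gap to the nearest library, divided by the range of the group, was above Dixon's 95% critical value for 4 values. Of 51 groups tested 8 stood out, and chance gives about 1 in 20. Non-senescent PTEC replicate 3 was the highest library for Tpi1 (1122 CPM), Pgk1 (630.2 CPM) and Ldha (1846 CPM). Senescent PTEC replicate 4 was the lowest for Pgk1 (179 CPM). The share of Pkm in pyruvate kinase was lowest in non-senescent PTEC replicate 4 (95.9%). On the scale of all 17 libraries the same replicate was the highest for the summed proximal tubule markers (647 CPM) and distal tubule and collecting duct markers (18.4 CPM). Senescent PTEC replicate 3 was the highest for the summed immediate early and heat shock genes (509 CPM).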

How the results depend on the processing

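In PTEC 7 or 8 of the 10 genes were called lower and 0 higher under each alternative run, with Hk1 under the fold threshold at -0.50 with upper quartile scaling and by the threshold of 1. The replicate block changed no member's call there (8 lower). Between 12 and 3 months, members called lower went from 0 to 1 with RLE scaling, upper quartile scaling and DESeq2. Between 24 and 12 months, members called higher went from 1 to 0 without the filter, with the replicate block over all 9 kidneys, with a threshold of 1 and with each kidney left out (0 to 0), and to 4 with the replicate block over these 2 ages alone (1297 genes higher and 903 lower in all). For non-senescent PTEC against 3-month-old kidney, members called lower went from 1 to 0 without the filter, with the replicate block (Tpi1 adjusted p = 0.0741) and with a threshold of 1, and lay between 0 and 2 with a library left out. There the labels share only numbers between cultures and kidneys. The causes were not tested.

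Values that changed sign were not called. Aldoa between 24 and 3 months was -0.0139 with RLE scaling, -0.0301 with upper quartile scaling, -0.00756 with DESeq2, -0.00255 with the replicate block and -0.00466 with the compared ages alone, and -0.0814 to 0.0717 with a kidney left out. Tpi1 between 12 and 3 months was -0.00274 with RLE scaling, -0.00371 with DESeq2 and -0.022 with the replicate block, and -0.129 to 0.202 with a kidney left out. With a kidney left out, Pgam1 lay between -0.0348 and 0.0254 and Ldha between -0.0984 and 0.0167 for 24 against 3 months, Hk1 (-0.37 with all kidneys) between -0.643 and 0.105 and Pfkl between -0.413 and 0.04998 for 12 against 3 months, and Pgam1 between -0.00781 and 0.144 and Pgk1 between -0.0760 and 0.00741 for 24 against 12 months.

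Calls over all genes moved more in kidneys. DESeq2 gave 727 higher and 308 lower between 24 and 3 months against 322 and 77 by edgeR, 531 and 576 between 12 and 3 months against 209 and 232, and 493 and 286 between 24 and 12 months against 153 and 74. The replicate block gave 102 and 24, 52 and 66, and 0 and 0, and the compared ages alone 208 and 57, 38 and 26, and 141 and 46. With 1 kidney left out the counts ran from 52 to 460 and 22 to 334, from 31 to 249 and 21 to 467, and from 0 to 55 and 1 to 8, where the highest came without 3-month replicate 2 for the comparisons with 3 months and without 24-month replicate 3 for the other. In PTEC a threshold of 1 gave 2067 and 1686 against 3100 and 3044. The isozyme shares kept their direction with exon union lengths and with each library left out, where the smallest possible p is no longer under 0.05, as with the replicate block (exact sign-flip p = 0.125 for Ldha, Pfkp and Pgam1, 0.25 for Pkm and 0.5 for Hk2). Hk2 in kidneys rests on 23 to 114 reads a library, which limits its precision.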
